A study of Homo sapiens with 9 samples.

Results

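Aminoacyl-tRNA synthetases are the enzymes that join each amino acid to its transfer RNA, the step that sets which amino acid a codon is read as. The genes described here are those of 9 cytosolic synthetases, AARS1, CARS1, EPRS1, GARS1, HARS1, MARS1, QARS1, VARS1 and WARS1, among 14884 genes tested. They were taken by gene symbol, and each gene was read by its brightest feature. The family was selected on measured values, since the differences of its genes among the 3 groups of arrays were already known when it was put forward, as they were for the list of amino acid response genes used below. The adjusted p-values below therefore say where each gene stood in a fit of all genes and are not independent evidence of a change in the family.

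BT-549 is an established human cell line of triple-negative breast cancer, a tumour type without estrogen and progesterone receptors or extra copies of HER2. In 1 group the cells received mature miR-150-5p as a synthetic mimic at 50 nM (mimic), and in another a non-specific small RNA at 50 nM (negative control). The mock group had only Lipofectamine RNAiMAX, the lipid reagent that all groups received. All groups were grown in RPMI-1640 with serum, had their medium changed at 24 h, and gave total RNA at 72 h, with 3 arrays each, read on whole-transcript Affymetrix arrays as log2 signals. The labels name no separate cultures for the 3 samples of a group, so each p-value is set against a spread that may be technical only. A single cell line was used, so nothing here speaks to other cells. RNA was read from whole cultures, in which fewer cells expressing a gene and less of its RNA per cell cannot be told apart.

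Synthetases fall into class I and class II by the fold of their catalytic domain. Several of them, among them those for glutamate and proline (EPRS1), methionine (MARS1) and glutamine (QARS1), are held in a large multisynthetase complex, while those for alanine, cysteine, glycine, histidine and tryptophan work outside it. Many synthetase genes are known targets of ATF4, the transcription factor that cells raise when amino acids run short or the endoplasmic reticulum is stressed. ATF4 binds with partners of the C/EBP family to a composite element near the start of its targets, and WARS1 is in addition a known interferon-induced gene.

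The promoters are shown because 4 of the synthetase genes share the core of that composite element. RefSeq promoter sequences of the GRCh38.p14 assembly, from 250 bases before to 50 bases after each annotated start, were held for 8 of the 9 genes, with 11 starts in all. The letters TGATGNAA (N is any base), searched on both strands, occurred in AARS1, CARS1, GARS1 and MARS1. Among all genes with a RefSeq promoter, 4.46% had a match at 1 or more of their starts, and 3.62% of all promoters did. Each match read on the strand opposite to the gene. It began 187 bases before the start in AARS1, 33 bases before 1 of the 2 starts in GARS1, 4 bases before the start in MARS1 and 2 bases before 1 of the 2 starts in CARS1. The stretches around the matches, read along the gene and with the match in capitals, lie at chr16:70289660-70289719 (minus strand, AARS1), chr11:3057404-3057451 (minus strand, CARS1), chr7:30594819-30594878 (plus strand, GARS1) and chr12:57488038-57488087 (plus strand, MARS1).
AARS1: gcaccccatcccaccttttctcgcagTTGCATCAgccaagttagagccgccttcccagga
CARS1: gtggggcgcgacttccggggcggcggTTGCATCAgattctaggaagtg
GARS1: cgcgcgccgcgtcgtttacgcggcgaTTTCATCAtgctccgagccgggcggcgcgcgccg
MARS1: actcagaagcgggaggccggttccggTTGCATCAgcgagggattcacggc

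These letters were not found in the windows of EPRS1, HARS1, QARS1 and WARS1, which says nothing of binding there or elsewhere. Of 8 other cytosolic synthetase genes with a promoter in the table, IARS1, NARS1 and TARS1 had the letters. In the list of amino acid response genes used below, 6 of the 23 with a promoter (26.1%) had them, and the rest did not. The E-box CACGTG, searched on both strands, was in the windows of 0 of the 8 genes and of 8.77% of all genes. For WARS1 the core letters of an interferon response element, a pair of GAAA runs with 2 bases between them, searched on both strands, matched at 55 bases before 1 of its 2 starts, at chr14:100375367-100375428 (minus strand). A match of that kind was present in 4.38% of all genes and in no other member. None of the 3 sets of letters overlapped another in these windows, and a match is a description of the letters, not a bound site.
WARS1: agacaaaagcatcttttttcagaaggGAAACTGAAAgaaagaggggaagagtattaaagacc

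Before the results, the arrays as a whole were compared. Array medians ran from 2.43 to 2.48 log2 signal. Over all features, which do not count as replicates, Pearson's r was 0.981 to 0.989 for arrays of 1 group and 0.977 to 0.986 for arrays of different groups. The labelled line was checked by markers. VIM, FN1 and ZEB1, expected in a mesenchymal-like line, lay at the 99.1, 99.1 and 93.0 percentiles of gene means. ESR1, PGR, EPCAM and GRHL2, of hormone-responsive or epithelial cells, lay between the 8.69 and 22.8 percentiles, and PECAM1 and ALB, of endothelium and liver, at 24.1 and 14.5. Small nucleolar and Cajal body RNAs, short RNAs that are also on the array, were averaged over 23 genes, and this mean was 6.78 on mock 2 and 6.83 on negative control 2, against 5.62 to 5.91 on the other mock and negative control arrays and 5.95 to 6.75 on the mimic arrays. Mock 2 was also the lowest mock array for 7 of the 9 synthetase genes, all but CARS1 and QARS1. Mimic 3, at 6.75 the highest mimic array for these short RNAs, was the lowest mimic array for 7 of the 9. Negative control 2 went the other way. There the 9 genes deviated from their own means by -0.22 on average, above -0.41 on negative control 1 and -0.30 on negative control 3. How often an array was the lowest of its group over all genes was not counted. What these short RNAs have to do with the synthetase levels was not tested. Across all genes 55.4% of those called in the mimic against the negative control rose, and 37.8% did after a second quantile normalization.

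**Figure D1:**
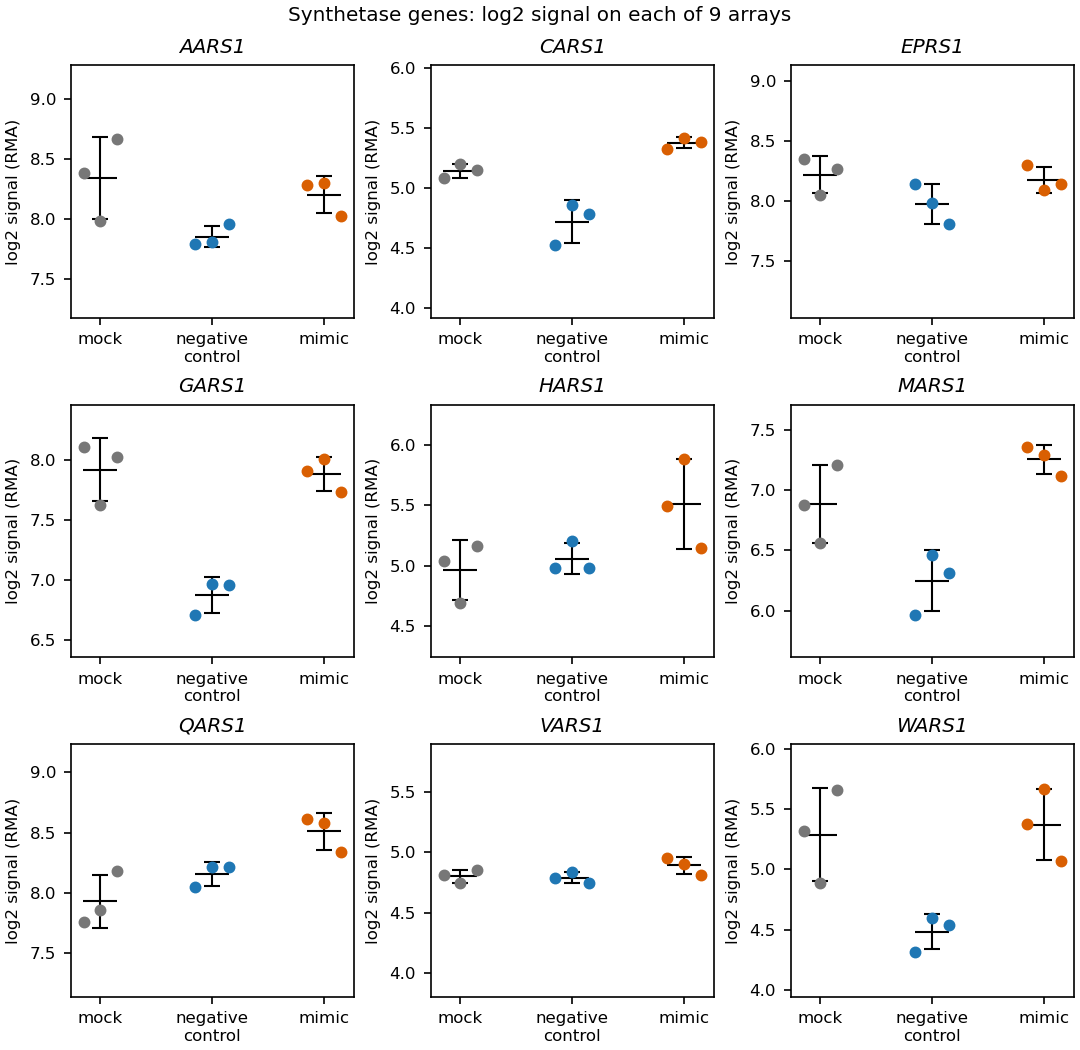
Log2 signal (RMA) of each of the 9 synthetase genes on each array, with mock, negative control and mimic on the horizontal axis, 3 points per group in the order of replicate number, the mean as a wide bar and whiskers of 1 SD. Each panel spans the same log2 range, and the 3 negative control points lie below the other 6 in AARS1, CARS1, GARS1, MARS1 and WARS1.

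In 5 of the 9 genes, AARS1, CARS1, GARS1, MARS1 and WARS1, the 3 negative control arrays lay below the other 6 arrays, as they did in 2.41% of all genes. The TGATGNAA letters and this pattern did not always go together. WARS1 showed the pattern with no match in its windows. Of the 3 other synthetase genes with the letters, NARS1 and TARS1 had negative control arrays that overlapped mock arrays. IARS1 showed the pattern, with negative control arrays only 0.00091 below mock and 0.043 below mimic arrays. The mimic arrays lay above the other 6 in QARS1 and CARS1, as in 5.76% of all genes. EPRS1, HARS1 and VARS1 had groups that overlapped in all 3 comparisons.

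GARS1 makes the synthetase of glycine, which serves both the cytosol and the mitochondria. Its log2 signals on arrays 1, 2 and 3 of each group, an order kept below, were 8.11, 7.62 and 8.03 for mock, 6.71, 6.97 and 6.96 for the negative control, and 7.91, 8.01 and 7.73 for the mimic. The negative control arrays were low and did not overlap either other group, while mock and mimic arrays covered the same range. GARS1 rose by 1.01 ± 0.14 (log2, SE; 2.01-fold, 95% interval 1.62 to 2.49, n = 3 per group, limma adjusted p = 0.0059) in the mimic against the negative control. It fell by 1.04 on the log2 scale in the negative control against mock (2.06-fold lower, SE 0.14, limma adjusted p = 0.012). Without mock 1, mock 3 or negative control 1 that fall did not pass, with adjusted p up to 0.078 by limma. With the replicate number as a block in the fit of the 6 mock and negative control arrays, limma gave adjusted p = 0.12, and in the blocked fit of all 9 arrays adjusted p = 0.049. Mimic against mock differed by -0.04 ± 0.14 on the log2 scale, with a 95% interval from -0.35 to 0.28.

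MARS1 makes the methionine enzyme, which charges both the initiator and the elongator transfer RNA and sits in the multisynthetase complex. Mock arrays read 6.88, 6.57 and 7.21, negative control arrays 5.97, 6.47 and 6.32, and mimic arrays 7.36, 7.29 and 7.12. The mimic arrays stood 0.65 or more above every negative control array, whereas the lowest mock array was only 0.10 above the highest of them. MARS1 rose in the mimic against the negative control by 1.01 ± 0.17 (2.01-fold, 95% interval 1.53 to 2.63, limma adjusted p = 0.016), and the call was lost when mimic 1 or 2, or negative control 1 or 3, was left out (adjusted p up to 0.069 by limma). The negative control differed from mock by -0.64 ± 0.17 (limma adjusted p = 0.18), and the mimic from mock by 0.37 ± 0.17 (limma adjusted p = 0.31), neither of which passed.

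CARS1 encodes the cysteine enzyme, a class I synthetase outside the complex. On mock arrays it read 5.08, 5.20 and 5.15, on negative control arrays 4.52, 4.86 and 4.78, and on mimic arrays 5.32, 5.42 and 5.38. No group overlapped another, with the negative control lowest and the mimic highest. The rise in the mimic over the negative control was 0.65 ± 0.097 (1.57-fold, 95% interval 1.35 to 1.83, limma adjusted p = 0.0079). This call held without each array in turn, with adjusted p up to 0.038 by limma. Between negative control and mock CARS1 differed by -0.42 ± 0.097 (limma adjusted p = 0.11) and between mimic and mock by 0.23 ± 0.097 (limma adjusted p = 0.24), which did not pass.

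WARS1 encodes the tryptophan enzyme. Its brighter feature read 5.32, 4.89 and 5.66 on mock, 4.32, 4.59 and 4.54 on negative control and 5.38, 5.67 and 5.07 on mimic arrays. Negative control arrays were lowest, and mock and mimic arrays overlapped. WARS1 rose by 0.89 ± 0.20 in the mimic against the negative control (1.85-fold, 95% interval 1.36 to 2.54, limma adjusted p = 0.047), close to the threshold. It did not pass without mock 1, or without any of the negative control or mimic arrays, with adjusted p up to 0.15 by limma. A second feature of WARS1 was dim, at 2.64 to 3.59 over the 9 arrays, and its group means differed by 0.05 (log2) between mimic and negative control and by -0.48 between negative control and mock. With the mean of both features the difference between mimic and negative control was 0.47 (limma adjusted p = 0.092). The bright feature stood at -0.81 ± 0.20 in the negative control against mock (limma adjusted p = 0.14).

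Since WARS1 is interferon-induced, other interferon genes were set beside it. Of 17 listed, 9 were measured, and in the mimic against the negative control 3 of them fell, while 1.42% of all genes fell. These were IFITM1 (-0.91 ± 0.12, limma adjusted p = 0.0054) and IFITM3 (-0.96 ± 0.19), which hinder virus entry, and ISG15 (-0.69 ± 0.15), a ubiquitin-like protein. The IFITM3 call was lost without mock 1, negative control 2 or 3 or any mimic array (adjusted p up to 0.096 by limma), and that of ISG15 without mock 1 or 3, without negative control 1 or 2 and without any mimic array (up to 0.13). With the replicate block neither passed (limma adjusted p = 0.050 for IFITM3 and 0.078 for ISG15), nor did they with all features or with the 6 arrays compared, which left IFITM1 as the 1 call. IFITM1 also fell in the mimic against mock (-0.90 ± 0.12, limma adjusted p = 0.0056). Of the 9 genes IFIT1, IFIT2, IFIT3 and CXCL10 read at most 2.29 on any array, under the array medians, so that a median of the list would rest on dim features.

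AARS1, whose product charges and proofreads alanine transfer RNA, read 8.39, 7.98 and 8.66 on mock arrays, 7.80, 7.81 and 7.96 on negative control arrays and 8.29, 8.30 and 8.03 on mimic arrays. Negative control arrays were again lowest, by only 0.03 below mock 2 and by 0.07 below mimic 3. The differences were 0.35 ± 0.16 for mimic against negative control (limma adjusted p = 0.32), -0.49 ± 0.16 for negative control against mock (0.26) and -0.14 ± 0.16 for mimic against mock (0.73), none of which passed.

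QARS1, for glutamine, had another order of groups. It read 7.76, 7.86 and 8.18 on mock, 8.04, 8.21 and 8.21 on negative control and 8.61, 8.58 and 8.33 on mimic arrays, so that mimic arrays were above all others and negative control arrays overlapped mock. QARS1 rose in the mimic against mock by 0.58 ± 0.12 (log2, 95% interval 0.30 to 0.86, limma adjusted p = 0.037). The call was lost without mock 1 or 2, negative control 1 or 3, or mimic 1 or 2 (adjusted p up to 0.13 by limma). Against the negative control the difference was 0.35 ± 0.12 (limma adjusted p = 0.19), and the negative control stood 0.23 ± 0.12 above mock (limma adjusted p = 0.57).

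HARS1, for histidine, varied most among mimic arrays. It read 5.04, 4.69 and 5.16 on mock, 4.98, 5.21 and 4.98 on negative control, and 5.49, 5.89 and 5.14 on mimic arrays, mimic 3 lying within the range of the others. The mimic was 0.45 ± 0.19 above the negative control (limma adjusted p = 0.27) and 0.55 ± 0.19 above mock (limma adjusted p = 0.16), and neither passed.

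EPRS1 encodes a joined pair of enzymes, for glutamate and proline, on 1 protein chain. On mock, negative control and mimic arrays it ran from 8.05 to 8.35, from 7.81 to 8.14 and from 8.09 to 8.30, ranges that overlap. It differed by 0.20 ± 0.11 between mimic and negative control (95% interval -0.06 to 0.46, limma adjusted p = 0.46).

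VARS1, whose valine enzyme associates with elongation factor 1, was the flattest of the 9, with values from 4.74 to 4.96 over all arrays. The mimic differed from the negative control by 0.10 ± 0.076 (95% interval -0.07 to 0.27, limma adjusted p = 0.58). Its other feature read 4.41 to 4.90, with a difference of 0.28 in the same comparison.

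**Figure D2:**
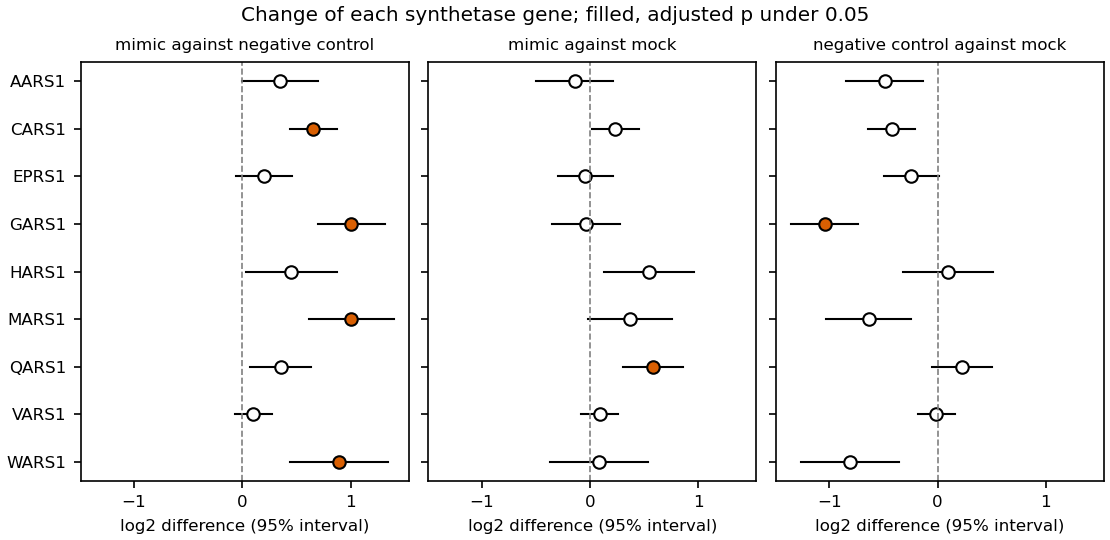
Log2 difference of each synthetase gene with its 95% interval from limma, for the mimic against the negative control, the mimic against mock and the negative control against mock. Filled points passed an adjusted p of 0.05, which were CARS1, GARS1, MARS1 and WARS1 in the first panel, QARS1 in the second and GARS1 in the third.

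Setting the mimic against the negative control compares cells given different small RNAs at the same dose. Whether a difference comes from the mimic or from the control RNA was not tested. In this comparison 4 of the 9 genes rose, CARS1, GARS1, MARS1 and WARS1, while 1.76% of all genes rose. The other 5 did not pass, and all 9 had a difference above 0, from 0.10 to 1.01 with a median of 0.45, beside a median of 0.00 over all genes. The groups did not overlap in 6 of the 9, as in 18.6% of all genes. Of the genes of the multisynthetase complex among the 9, MARS1 rose and EPRS1 and QARS1 did not pass. The count was 2, CARS1 and GARS1, when negative control 1, negative control 3, mimic 1 or mimic 2 was left out.

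Against mock, which shows the whole difference from cells given no small RNA, 1 of the 9 rose in the mimic, QARS1, while 2.28% of all genes rose. The groups did not overlap in 2 of 9 genes, CARS1 and QARS1, as in 20.2% of all genes. Differences ran from -0.14 for AARS1 to 0.58 for QARS1, with a median of 0.09, against 0.00 for all genes.

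The negative control against mock sets cells given the control RNA beside cells given only the reagent. Whether a difference comes from the entry of a small RNA or from this RNA's own sequence was not tested. GARS1 fell, 1 gene of 9, while 0.477% of all genes fell. These calls come from the fit without a replicate block. With the block on the 6 mock and negative control arrays, limma called 0 of all genes tested. Groups did not overlap in 5 of 9, as in 12% of all genes. The median of the 9 was -0.42, with 7 genes below 0 and HARS1 and QARS1 above, and the median of all genes was 0.01. This comparison and that of the mimic with the negative control share the 3 negative control arrays, so that a low value on those arrays enters both with opposite signs.

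The 9 genes were correlated with each other over the 9 arrays, given here as a description without a test. Pearson's r was above 0 for 35 of 36 pairs, with a median of 0.60, and the highest were GARS1 with WARS1 (0.95), MARS1 with WARS1 (0.93) and CARS1 with MARS1 (0.91). The lowest was EPRS1 with QARS1, at -0.06. Taken as deviations from group means, which leaves out the differences between treatments, the median was 0.62, with 32 of 36 pairs above 0. Most pairs thus also varied together among arrays of 1 group, where GARS1 with WARS1 had 0.86 and CARS1 with GARS1 0.21. The lowest was CARS1 with EPRS1, at -0.71. Also below 0 were CARS1 with AARS1 (-0.06), CARS1 with VARS1 (-0.09) and EPRS1 with QARS1 (-0.10). Pairs of other genes were not counted in this way. The points share their arrays, and the part that RNA quality or labelling has in this was not tested. Other genes were then ranked by likeness to the members' mean, leaving out microRNA, small nucleolar, Cajal body RNA and uncharacterised LOC genes. Among the genes ranked, those most like that mean over the 9 arrays were NAV3 (r = 0.96), LZTFL1 (0.96), MAPKAPK5 (0.96), SOAT1 (0.96) and SCRN1 (0.95). The median r over all genes ranked was 0.01. NAV3 encodes a microtubule-binding protein of neurons, MAPKAPK5 a kinase of the stress-activated pathway and SOAT1 an enzyme that esterifies cholesterol.

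Of 12 other cytosolic synthetase genes 9 were measured, IARS1, KARS1, LARS1, NARS1, RARS1, SARS1, TARS1, TARS3 and YARS1. None was called by limma in any comparison, while 4 had an unadjusted p under 0.05 in the mimic against the negative control, 2 in the mimic against mock and 2 in the negative control against mock. Over all 14884 genes 2378, 2609 and 1643 had such a p in these comparisons. In the mimic against the negative control 8 of the 9 were above 0, with a median of 0.25. The nearest to a call was TARS1, for threonine, at 0.37 ± 0.098 (limma adjusted p = 0.082), and the largest difference was that of SARS1, for serine, at 0.49 ± 0.16 (limma adjusted p = 0.16), both named after their values were seen. TARS1 passed with array weights (0.40, limma adjusted p = 0.040) and without mock 2 and negative control 2 together (0.44, limma adjusted p = 0.046). TARS3, a second threonine enzyme, read 1.74 to 2.42, under the median of every array, and at that dim signal differed by -0.29 ± 0.15, passing without negative control 3 (-0.49, limma adjusted p = 0.043). Over all 18 measured cytosolic synthetase genes the median was 0.34 in this comparison, 0.10 in the mimic against mock and -0.25 in the negative control against mock. AIMP1, a scaffold of the multisynthetase complex, differed by 0.06 ± 0.090 between mimic and negative control. The mitochondrial synthetase genes and the amino acid transporters of the lists were not analysed here.

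**Figure D3:**
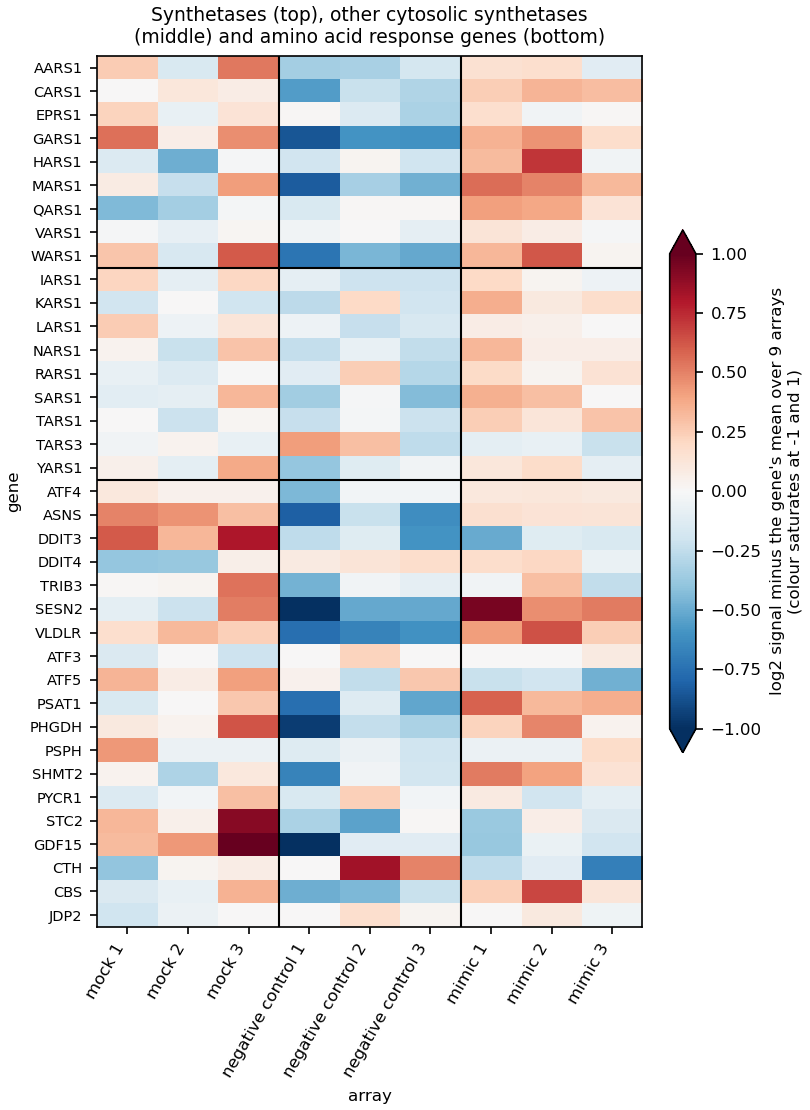
Log2 signal minus the gene's own mean over 9 arrays, with a column per array and a row per gene, for the 9 synthetase genes (top), 9 other cytosolic synthetase genes (middle) and 19 amino acid response genes (bottom). The negative control columns are blue for AARS1, CARS1, GARS1, MARS1, WARS1, ASNS, SESN2 and VLDLR, and pale for VARS1. For CTH the columns of negative control 2 and 3 are red.

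The amino acid response was described by 28 listed genes known as targets or partners of ATF4, of which 19 were measured. In the mimic against the negative control 4 of them rose, beside 1.76% of all genes. They were SESN2 (1.36 ± 0.23, limma adjusted p = 0.014), a sestrin that restrains growth signalling when leucine is short, VLDLR (1.11 ± 0.11, limma adjusted p = 0.0011), a lipoprotein receptor, PSAT1 (0.89 ± 0.17, limma adjusted p = 0.021), of serine synthesis, and ASNS (0.70 ± 0.14, limma adjusted p = 0.027), asparagine synthetase. ASNS read 7.03, 6.98 and 6.83 on mock, 5.71, 6.31 and 5.91 on negative control and 6.69, 6.67 and 6.66 on mimic arrays. Its negative control arrays thus lay below both other groups, as in GARS1. Of the 19 genes, 13 were above 0 in the mimic against the negative control and 6 below. The lowest was CTH, at -0.80 ± 0.22 (limma adjusted p = 0.10), named after its value was seen. It did not pass, though its mimic and negative control arrays did not overlap. CTH was dim, at 1.99 to 2.56 on mimic and 2.28 to 2.75 on mock arrays, beside array medians of 2.43 to 2.48. The count of 4 was 2, SESN2 and VLDLR, when negative control 1, negative control 3, mimic 2 or mimic 3 was left out, and with the 6 arrays compared. It was 1, VLDLR, without mimic 1 and with all features tested. It was 6 when genes under the median signal were left out, which kept 17 of the 19.

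In the negative control against mock 3 of the 19 fell, beside 0.477% of all genes. They were ASNS (-0.97 ± 0.14, limma adjusted p = 0.015), VLDLR (-0.92 ± 0.11, limma adjusted p = 0.0071) and DDIT3 (-0.91 ± 0.16, limma adjusted p = 0.048), the stress transcription factor CHOP. The DDIT3 call was lost without each array except mock 2 (adjusted p up to 0.18 by limma), and that of ASNS without mock 1 or negative control 3 (up to 0.093). In the blocked fit of the 6 mock and negative control arrays none of the 3 passed. SESN2 (-0.77 ± 0.23) and PSAT1 (-0.51 ± 0.17) did not pass in this comparison. Of the 19 genes, 15 were below 0 here and 4 above, the highest being CTH at 0.54 ± 0.22, which did not pass. In the mimic against mock 1 of 19 fell, DDIT3 (-0.84 ± 0.16, limma adjusted p = 0.025), lost without mock 1 or 3 or any mimic array (up to 0.096), while 1.62% of all genes fell. There ASNS (-0.27 ± 0.14), SESN2 (0.58 ± 0.23), PSAT1 (0.39 ± 0.17) and VLDLR (0.19 ± 0.11) did not pass.

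ATF4 itself read 7.75, 7.68 and 7.68 on mock, 7.19, 7.61 and 7.61 on negative control and 7.75, 7.75 and 7.73 on mimic arrays. The negative control arrays were lowest, chiefly negative control 1, and ATF4 passed in no comparison, with 0.27 ± 0.11 for the mimic against the negative control (limma adjusted p = 0.27), -0.23 ± 0.11 for the negative control against mock and 0.04 ± 0.11 for the mimic against mock. ATF4 is controlled largely through its translation, which an array of RNA does not read. The median of the 19 genes was 0.21 in the mimic against the negative control, -0.01 in the mimic against mock and -0.39 in the negative control against mock.

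**Figure D4:**
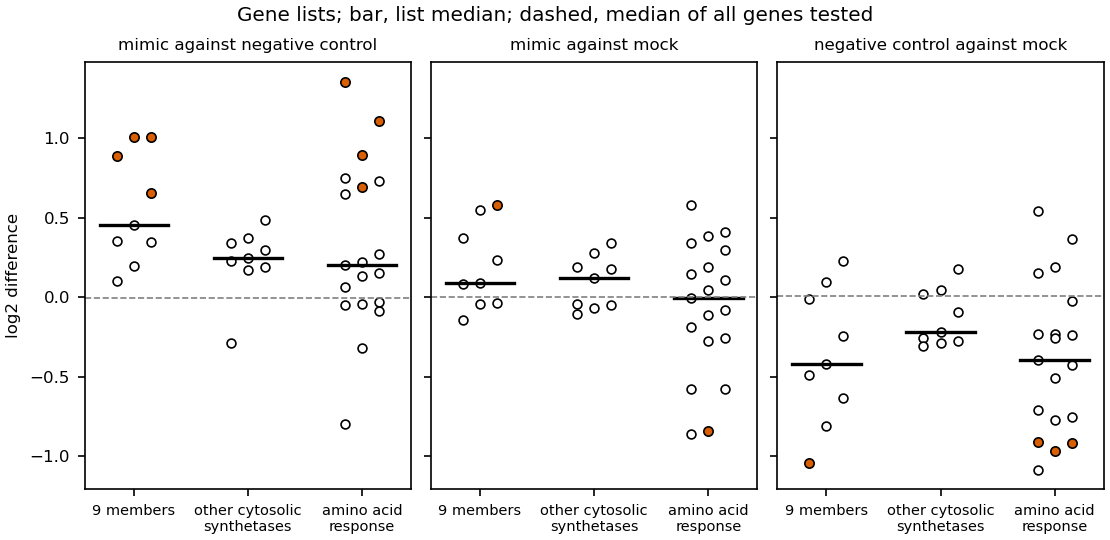
Log2 difference of every measured gene of the 9 members, of 9 other cytosolic synthetases and of 19 amino acid response genes, in each of the 3 comparisons. Filled points passed an adjusted p of 0.05, bars are list medians and the dashed line is the median of all genes tested. In the negative control against mock the medians are -0.42, -0.22 and -0.39.

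Upstream and beside the synthetases, 2 further lists were read. Of 14 listed genes of initiation factor 2 and its control, 6 were measured, namely the stress-sensing kinases EIF2AK1, EIF2AK2, EIF2AK3 and EIF2AK4 and the GCN2 regulators GCN1 and IMPACT, and none was called by limma, with 1, 1 and 0 at an unadjusted p under 0.05 in the mimic against the negative control, the mimic against mock and the negative control against mock. EIF2AK4, the kinase GCN2 that senses uncharged transfer RNA, differed by -0.13 ± 0.11 between mimic and negative control. Of 25 genes of transfer RNA maturation and export 18 were measured, and 1 passed, in the mimic against mock, where 2.28% of all genes rose. That was ELAC2, which trims the 3′ end of transfer RNA precursors and rose by 0.59 ± 0.12 (limma adjusted p = 0.033). The call was lost without mock 1 or 2, negative control 1 or any mimic array (adjusted p up to 0.12 by limma). In the mimic against the negative control 0 of the 18 were called, while 2 of 17 rose when genes under the median signal were left out. The list had a median of 0.15 in the mimic against the negative control, 0.18 in the mimic against mock and 0.03 in the negative control against mock.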

How the data were processed

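Total RNA of 9 samples was read on Affymetrix Human Gene Array 2.0 ST. The authors deposited log2 values per feature, made with RMA per the submitters' processing notes, whose version the sources used here do not give. The table held 53617 features on 9 arrays, with 0 missing values. Of these, 16098 had 1 symbol in the platform annotation, whose gene IDs all matched a RefSeq table, and the brightest feature stood for each of 14884 genes. WARS1 and VARS1 had 2 features. Genes were tested across all genes in R 4.3.3 by limma 3.58.1 (eBayes after lmFit, 1 mean per group, 9 arrays, two-sided, 9.60 total degrees of freedom), with Benjamini-Hochberg adjustment over all genes of a comparison and a call at an adjusted p under 0.05. The number of arrays limits the precision, and no filter on signal was used. The pipeline was tested on simulated data.

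The members and lists were chosen with earlier results of these data known. All members were named; from lists, called genes were named, with ATF4, ASNS, DDIT3 and EIF2AK4, and the 5 genes most like the members' mean deviation. Replicate numbers were checked by the correlation across genes of deviations from group means. Same-numbered negative control and mock arrays had r = 0.15, 0.23 and 0.15, so these numbers may be a pairing, which rests on the values and not on the labels. The main fit did not use this pairing, which entered only the alternatives with a replicate block. Mimic arrays had r from -0.29 to -0.054 with same-numbered arrays and were not paired. With arrays of another number they reached r = 0.24 (mimic 1 with negative control 2), so that r of this size also arose without a shared number. Negative control and mock arrays of different numbers had r from -0.16 to 0.022. The alternatives were a second quantile normalization, median centring, leaving out genes under the median signal, averaging the features of a gene, testing every feature, trended and robust variance, array weights, only the 6 arrays compared, the replicate block, the small nucleolar RNA mean as a covariate and leaving out each array. The sequence of miR-150-5p is not shown.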

Additional observations from a re-analysis of the deposited data

How the results depend on the processing

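Every alternative kept the direction of the 4 rises in the mimic against the negative control, of the QARS1 rise and of the GARS1 fall, and calls were lost as follows. In the mimic against the negative control the count of 4 called synthetase genes was 2 with all features tested, 3 or 4 under the other settings with no single array left out, and 2 to 4 without each array in turn. In the mimic against mock the count of 1 was 0 with a second quantile normalization, with all features, with the 6 arrays compared, with the replicate block and without mock 2 and negative control 2 together, and 0 to 1 without each array. In the negative control against mock the count of 1 was 0 with all features, with the 6 arrays compared and with the replicate block on those 6 arrays, and 0 to 1 without each array. That blocked fit called 0 genes of all tested by limma, with 1735 at an unadjusted p under 0.05. The replicate block on all 9 arrays gave 3, 0 and 1 called synthetase genes, WARS1 being lost at adjusted p = 0.10 and QARS1 at 0.073. For the amino acid response and interferon lists, calls in the mimic against the negative control went from 4 to 1 and from 3 to 1 with all features, and from 4 to 2 and from 3 to 1 with the 6 arrays compared. With genes under the median signal left out, calls in that comparison went up. They went from 4 to 6 for the amino acid response and from 0 to 2 for transfer RNA maturation and export. With the small nucleolar RNA covariate the synthetase counts stayed at 4, 1 and 1. Leaving out mock 2 and negative control 2 together, and the block on 6 arrays, were chosen after seeing the data.

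Values near 0, none of them called, changed sign. In the mimic against mock, ATF4 was at -0.022 with a second quantile normalization, WARS1 at -0.17 with the mean of its features and at -0.12 without mock 2 and negative control 2 together, and GARS1 at 0.039 with the covariate. Without each array in turn AARS1 there ran from -0.32 to 0.019, EPRS1 from -0.13 to 0.021, GARS1 from -0.18 to 0.059 and WARS1 from -0.12 to 0.27. In the negative control against mock, VARS1 was at 0.0041 with a second quantile normalization and HARS1 at -0.12 without mock 2 and negative control 2 together. Without each array in turn VARS1 there ran from -0.043 to 0.010 and HARS1 from -0.046 to 0.19. The cause was not tested. Over all genes, calls in the mimic against the negative control went from 262 rising and 211 falling to 176 and 289 with a second quantile normalization, in the mimic against mock from 339 and 241 to 231 and 287, and in the negative control against mock from 25 and 71 to 56 and 80. With all features the mimic against mock gave 155 rising and 174 falling. The totals of 473, 580 and 96 called genes in the 3 comparisons were 251, 321 and 18 with the 6 arrays compared and 292, 346 and 61 with the replicate block. The total of 580 was 904 with array weights, and that of 96 was 150 when dimmer genes were left out, 153 with the covariate and 28 without mock 2 and negative control 2. Without each array in turn the totals ran from 199 to 431, from 188 to 650 and from 21 to 112. Signals near the array median limit what the dim features show.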
